A study of Mus musculus and Ictidomys tridecemlineatus with 36 samples.

Results

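Poised enhancers that carried Otx2 without Neurod1 were taken from CUT&RUN peak lists of postnatal retina, 3063 of 81375 poised enhancers (3.76%) in the 13-lined ground squirrel (13LGS) and 5765 of 94101 (6.13%) in mouse. They were chosen by peak overlap alone. A poised enhancer was an H3K4me1 peak that overlapped no H3K4me3 peak and no H3K27ac peak of the same species, and it was kept when it overlapped an Otx2 peak by 1 bp or more and no Neurod1 peak. All H3K4me1 peaks together numbered 141578 in 13LGS and 135798 in mouse. CUT&RUN releases and sequences the DNA around an antibody's target in isolated nuclei, here from whole retina without sorting.

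The 13LGS retinas were from postnatal day 5 (P5) and the mouse retinas from P2, stages that the study matched for late retinal progenitors and photoreceptor precursors. Each biological replicate pooled retinas of 2 individuals in 13LGS and 3 in mouse, and a reaction used 500000 or 385000 nuclei. In 13LGS 1 library stood behind the list of each histone mark, 6 behind that of Otx2 and 4 behind that of Neurod1. In mouse there were 2 for each mark, 8 for Otx2 and 4 for Neurod1. Antibodies of 2 makers were used against Otx2, and 1 list per target and species pooled all its libraries, so no spread between replicates could be given and the depth behind a peak is unknown. A peak present in few cells and a weak peak present in many cannot be told apart in whole retina, and marks on the same stretch may come from different cells.

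Otx2 is a homeodomain transcription factor that retinal cells need to become photoreceptors or bipolar cells, and with its relative Crx it binds the motif TAATCC. Monomethylation of histone H3 lysine 4 marks enhancers whether or not they are in use, and acetylation of lysine 27 marks those in use, so H3K4me1 without H3K27ac is the usual sign of a poised or primed enhancer. Neurod1 is a basic helix-loop-helix (bHLH) factor of photoreceptor precursors that binds the E-box CAGATG.

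The sequences at 7 mouse members show TAATCC as it lay under their Otx2 peaks. Each is 300 bases of the GRCm38 reference around the Otx2 summit, plus strand, with TAATCC or its reverse complement GGATTA in capitals. By nearest transcription start site they are linked to genes of photoreceptor function or regulation, or they are among the members of highest Otx2 enrichment. Each holds TAATCC, unlike most members. The *Thrb* and *Mef2c* members lie outside genes, 228581 and 247727 bp from that site.
*Prph2* intron, chr17:46917584-46917883: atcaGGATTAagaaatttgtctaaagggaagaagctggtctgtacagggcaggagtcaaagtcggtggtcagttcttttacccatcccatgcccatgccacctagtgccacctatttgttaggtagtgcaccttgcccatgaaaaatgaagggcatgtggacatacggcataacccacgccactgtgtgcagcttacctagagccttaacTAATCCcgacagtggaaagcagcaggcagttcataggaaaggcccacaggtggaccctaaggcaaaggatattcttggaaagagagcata
*Thrb* upstream, chr14:17431678-17431977: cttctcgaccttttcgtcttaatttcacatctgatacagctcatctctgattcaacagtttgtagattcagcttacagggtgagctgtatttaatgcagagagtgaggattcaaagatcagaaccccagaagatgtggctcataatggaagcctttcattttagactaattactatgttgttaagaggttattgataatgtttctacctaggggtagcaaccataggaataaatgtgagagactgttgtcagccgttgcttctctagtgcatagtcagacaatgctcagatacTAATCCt
*Mef2c* upstream, chr13:83256069-83256368: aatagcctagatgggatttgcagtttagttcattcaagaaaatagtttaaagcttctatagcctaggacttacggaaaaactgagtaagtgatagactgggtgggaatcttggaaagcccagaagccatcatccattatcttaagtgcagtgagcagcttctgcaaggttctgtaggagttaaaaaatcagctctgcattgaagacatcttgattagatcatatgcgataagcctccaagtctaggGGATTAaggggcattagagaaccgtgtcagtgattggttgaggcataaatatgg
*Samd7* intron, chr3:30748430-30748729: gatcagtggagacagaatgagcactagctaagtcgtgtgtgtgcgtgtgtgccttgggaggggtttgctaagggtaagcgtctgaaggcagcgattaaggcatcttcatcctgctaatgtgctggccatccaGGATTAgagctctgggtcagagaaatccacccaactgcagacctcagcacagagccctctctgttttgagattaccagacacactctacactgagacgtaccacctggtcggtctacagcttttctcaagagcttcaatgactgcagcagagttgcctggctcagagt
*Cngb3* intron, chr4:19332829-19333128: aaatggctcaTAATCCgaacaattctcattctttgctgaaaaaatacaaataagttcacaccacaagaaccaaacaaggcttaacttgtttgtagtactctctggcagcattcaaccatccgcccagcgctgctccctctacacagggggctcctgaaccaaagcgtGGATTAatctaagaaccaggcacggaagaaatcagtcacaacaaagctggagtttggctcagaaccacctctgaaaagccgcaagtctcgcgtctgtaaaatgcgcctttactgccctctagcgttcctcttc
*Cyth2* promoter side, chr7:45815466-45815765: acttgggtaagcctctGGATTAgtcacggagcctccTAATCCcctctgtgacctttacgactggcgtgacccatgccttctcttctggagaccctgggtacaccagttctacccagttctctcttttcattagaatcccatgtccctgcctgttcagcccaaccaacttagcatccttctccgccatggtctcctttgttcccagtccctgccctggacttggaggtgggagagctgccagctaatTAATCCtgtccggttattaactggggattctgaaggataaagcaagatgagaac
*Celf2* intron, chr2:6838521-6838820: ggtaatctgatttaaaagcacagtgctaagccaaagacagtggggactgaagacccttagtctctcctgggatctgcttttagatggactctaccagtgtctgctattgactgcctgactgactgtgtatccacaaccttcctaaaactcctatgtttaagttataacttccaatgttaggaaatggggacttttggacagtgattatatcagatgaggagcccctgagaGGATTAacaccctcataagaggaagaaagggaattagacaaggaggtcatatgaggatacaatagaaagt
The summit follows the first 150 bases of each. *Prph2* encodes peripherin 2 of the outer segment disc rim, *Cngb3* a subunit of the cone cyclic nucleotide-gated channel, and *Samd7* a repressor in photoreceptors. *Thrb* encodes the thyroid hormone receptor of cones. The Otx2 fold enrichment over IgG, the control antibody, was 7.61 at *Prph2*, 4.01 at *Thrb*, 5.53 at *Mef2c*, 5.01 at *Samd7* and 2.32 at *Cngb3*. It was 21.9 at *Cyth2* and 16.5 at *Celf2*. The *Cyth2* window held 3 copies of the motif and the *Prph2* and *Cngb3* windows 2 each. At *Samd7* the summit lay just outside the H3K4me1 peak, which began at 30748597, while the other 6 summits lay inside theirs.

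Few poised enhancers were members, and those that were had broader peaks than poised enhancers with neither factor. Members had a median width of 1231 bp in 13LGS and 1433 bp in mouse, against 540 and 578 bp for poised enhancers with neither factor. Poised enhancers with both Otx2 and Neurod1 were broader still, with medians of 1471 and 1885 bp. The share of poised enhancers that were members was 1.15% below 300 bp (95% Wilson interval 0.989 to 1.33) and 36.8% from 4000 bp (32.8 to 41.0) in 13LGS. In mouse it was 1.94% (1.75 to 2.15) and 34.8% (32.3 to 37.3). A longer peak offers more room for an overlap, so Otx2 summits per Mb of poised sequence free of Neurod1 were also counted. There were 29.9 per Mb in 13LGS peaks below 300 bp and 93.9 per Mb in those from 4000 bp, and 45.5 and 87.1 per Mb in mouse. Density thus differed less than the share did, and it too was highest in the broadest peaks of both species. These values come from the lists that chose the members and are given without a test.

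**Figure D1:**
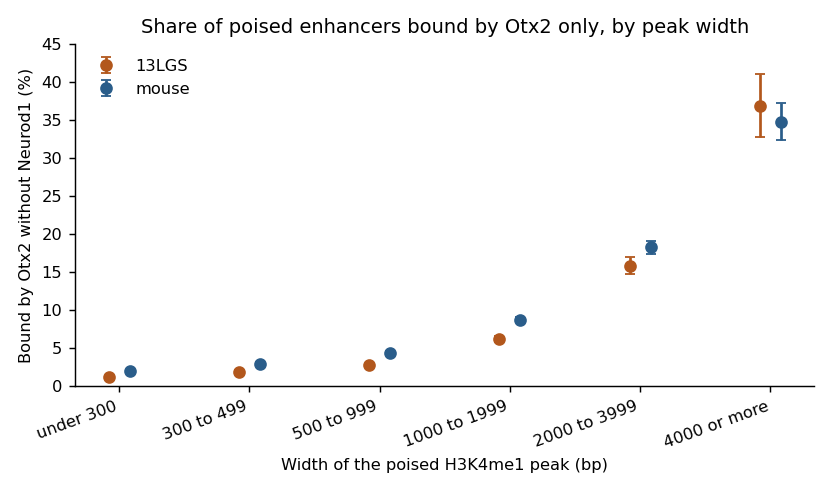
Percent of poised H3K4me1 peaks bound by Otx2 without Neurod1 (vertical axis) in 6 bins of H3K4me1 peak width in bp (horizontal axis), for 13LGS and mouse, with 95% Wilson intervals that cover counting error only. The share climbs from 1.15% to 36.8% in 13LGS and from 1.94% to 34.8% in mouse.

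H3K4me1 had a higher median at members than at poised enhancers with neither factor. Its median fold enrichment was 4.99 in 13LGS (middle 50% of members 3.47 to 7.85) and 5.88 in mouse (3.90 to 9.09), against 3.33 and 3.73 at poised enhancers with neither factor and 4.71 and 6.35 at those with both. Members thus lay above the class with both factors in 13LGS and below it in mouse. Among poised peaks with an H3K4me1 enrichment below 3, 1.65% in 13LGS and 2.64% in mouse were members, while of those at 12 or more 26.7% and 25.02% were. Otx2 itself had a lower median at members than in the other Otx2-bound classes, and the distributions overlapped widely. The median Otx2 enrichment was 3.05 in 13LGS members and 3.41 in mouse members. It was 3.17 and 3.56 at active enhancers (H3K27ac without H3K4me3) with Otx2 and no Neurod1, and 3.37 and 3.81 at H3K4me3 peaks with Otx2 and no Neurod1. Members ranged from 1.66 to 22.2 in 13LGS and from 1.74 to 28.6 in mouse.

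**Figure D2:**
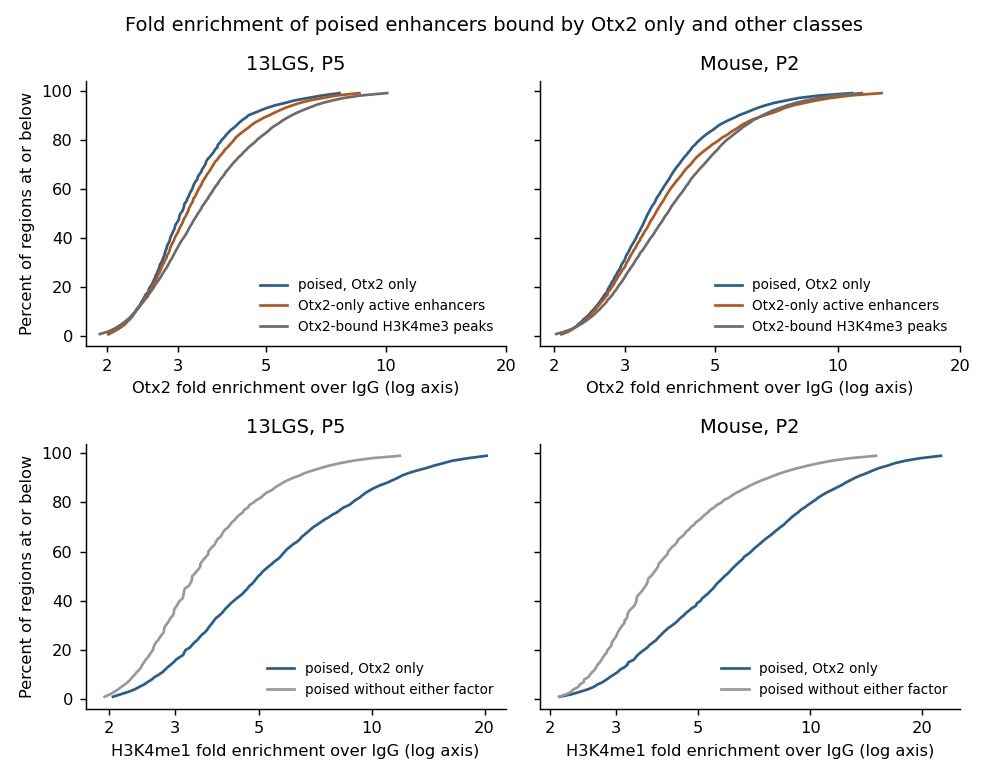
Percent of regions at or below each fold enrichment over IgG (log axes), Otx2 in the upper panels and H3K4me1 in the lower, 13LGS on the left and mouse on the right, drawn from the percentiles 1 to 99. The H3K4me1 curve of members lies right of that of poised enhancers with neither factor (medians 4.99 and 3.33 in 13LGS, 5.88 and 3.73 in mouse), and the Otx2 curves of the classes run close together.

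Most members held 1 Otx2 peak, 2958 in 13LGS and 5555 in mouse, and the most in any was 4 and 5. Together they accounted for 3163 of 27993 Otx2 peaks in 13LGS (11.3%) and 5960 of 29115 in mouse (20.5%). The Otx2 summit fell inside the H3K4me1 peak in 92.4% of 13LGS members and 90.7% of mouse members, and the median distance between the Otx2 and H3K4me1 summits was 159 and 184 bp. Of the Otx2 summits inside, 30.1% and 31.2% lay between 0.4 and 0.6 of the peak's length, and 7.64% and 7.61% in the first or last 0.1 of it. A uniform spread would put equal shares in stretches of equal length, so summits were denser near the centre, and most still lay outside that central stretch. Otx2 without Neurod1 occupied a larger share of poised enhancers in mouse than in 13LGS, 6.13% against 3.76%. Species, age, pool size, nuclei per reaction, the number of libraries for Otx2 and each histone mark, and the mix of Otx2 antibodies differed together. Their parts in the difference between the shares cannot be told apart. The H3K27ac peaks, whose overlap excluded an H3K4me1 peak, numbered 93999 in 13LGS and 62930 in mouse. With the same number of peaks for each target in both species the shares were 4.59% in 13LGS and 5.86% in mouse. The number of 13LGS members rested on the overlap limit and the calling limit, and was 1751 with at least 250 bp of overlap and 2009 with −log10 q of at least 5.

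The rule kept members free of overlap with the other marks, and their gaps to these are given as a description. The median gap to the nearest H3K27ac peak was 19395 bp in 13LGS and 29330 bp in mouse, and to the nearest H3K4me3 peak 71273 and 56902 bp. Neurod1 was farther still, at 184568 and 151022 bp, in lists of only 4658 and 4744 peaks. At the edge of the rule, 2 members in 13LGS and 7 in mouse lay within 50 bp of an H3K27ac peak, and 20 and 56 within 50 bp of an H3K4me3 peak. Just outside it, 7 H3K4me1 peaks in 13LGS and 1 in mouse with Otx2 and no Neurod1 were left out for an H3K27ac overlap of at most 50 bp, and 19 and 77 for such an H3K4me3 overlap. The H3K4me1 peaks left out for H3K27ac alone overlapped it by a median of 1566 and 1204 bp, so few turned on the 1 bp limit. The Otx2 peak at a member could itself reach another mark, which it did for H3K27ac in 17 members of 13LGS and 46 of mouse, and for H3K4me3 in 45 and 193. The lowest −log10 q of an Otx2 peak at a member was 1.30 in 13LGS and 1.33 in mouse, near the calling limit.

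The members of highest Otx2 enrichment differed in their H3K4me1. In 13LGS the highest Otx2 enrichment, 22.2, was at Itri2:104124153-104124864 of the HiC_Itri_2 assembly, on an H3K4me1 peak of 712 bp with an enrichment of 2.49. The next, 16.7, was at Itri3:131065749-131069143, where H3K4me1 reached 23.3 over 3395 bp. The other 8 of the first 10 had Otx2 enrichments of 9.66 to 16.2, and in 1 of the 10, at Itri14:18722940-18723423, the Otx2 summit lay outside the H3K4me1 peak. In mouse the highest, 28.6 at chr3:113757900-113758090, touched an H3K4me1 peak of only 191 bp (enrichment 3.66), and its summit lay outside that peak. The H3K4me1 summit there was 127866 bp from the transcription start site (TSS) of *Rnpc3*. Otx2 summits also lay outside at the members near *Egf*, *Mapk4* and *Ttc21b*, with Otx2 enrichments of 24.4, 22.4 and 16.7. The strongest H3K4me1 among the first 10 was 34.4 at chr3:6882454-6889683, a peak of 7230 bp outside genes with an Otx2 enrichment of 17.6. The Otx2 summit thus lay beyond the poised enhancer in 4 of the 10 in mouse and 1 of the 10 in 13LGS.

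The genome sequence, which the rule did not use, was searched on both strands within 150 bp of the Otx2 summit, with 1 Otx2 peak per mouse region. TAATCC was present at 29.2% of members (28.0 to 30.4), 1682 of 5765. At active enhancers with Otx2 and no Neurod1 it was present at 22.7%, 1084 of 4771. The difference was 6.46 percentage points (95% Newcombe interval 4.78 to 8.12, adjusted exact p = 1.25e-13 by Fisher's two-sided test). At H3K4me3 peaks with Otx2 and no Neurod1 it was present at 8.20%, 814 of 9921, which is 20.97 points below members (interval 19.7 to 22.3, adjusted exact p = 4.31e-252). Windows of the same length centred 1000 bp from the summits held it at 12.1% of members, 11.7% of active enhancers and 12.8% of H3K4me3 peaks. Members thus held TAATCC more often than both other Otx2-bound classes. The median width of the Otx2 peaks was 445 bp at members, 523 bp at active enhancers and 789 bp at H3K4me3 peaks. The part of peak width in these differences was not tested. Regions of a genome are not animals, and these p-values describe the lists. Members shared 10 Otx2 peaks with the active enhancers and 161 with the H3K4me3 peaks. In mouse 34 Otx2 peaks touched 2 or more members. Some windows could thus be counted more than once, while the tests treat windows as independent.

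The excess of TAATCC stood beside the summit, not on it. From 100 to 150 bp on each side there were 19.2 copies per 100 members, against 4.08 within 50 bp and 4.25 from 450 to 500 bp, a ratio of 4.52 of the first to the last. The same ratio was 3.86 at active enhancers and 1.31 at H3K4me3 peaks. More than 1 copy lay in the windows of 287 members (4.98%), against 3.00% of active enhancers and 0.575% of H3K4me3 peaks.

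**Figure D3:**
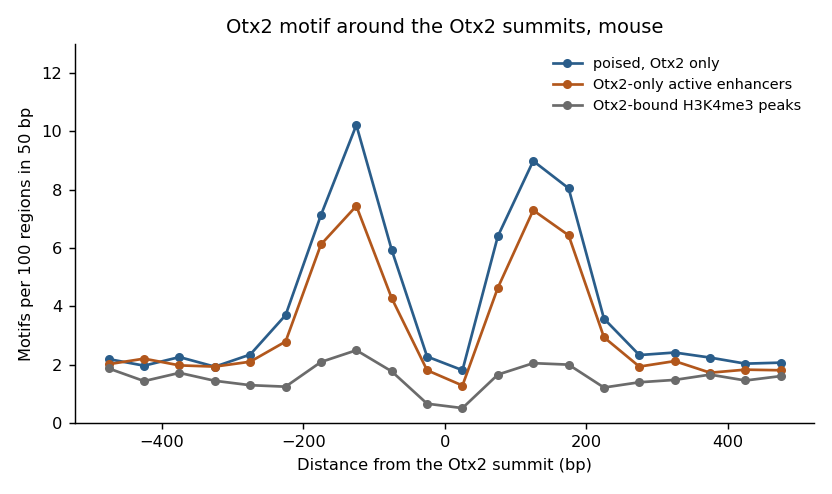
Copies of the Otx2 motif TAATCC per 100 regions in bins of 50 bp (vertical axis) by distance from the Otx2 summit in bp (horizontal axis) for mouse poised enhancers bound by Otx2 only, active enhancers bound by Otx2 only and Otx2-bound H3K4me3 peaks. The classes peak 100 to 150 bp from the summit and dip at it, and members lie highest, with 19.2 copies per 100 regions at that distance over both sides.

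TAATCC went with the Otx2 enrichment of the members. With an Otx2 enrichment below 2.85, 21.5% of members (19.5 to 23.7) held it, and from 4.29 upwards 39.9% (37.4 to 42.5). Active enhancers in the same ranges of enrichment held it at 14.3% and 32.2%. The difference between the classes stayed between 6.58 and 7.77 points in the 4 ranges, with intervals above 0 in each. By place, 32.6% of members in introns and 28.7% of those outside genes held TAATCC, against 20.6% within 1000 bp of a TSS. In windows with under 15 CpG dinucleotides the difference from active enhancers was 7.80 points, and among summits over 1000 bp from a TSS 7.21 points, restrictions added after the data were seen.

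The other motifs divided the classes differently. Against active enhancers, members more often held TAATTA, the site of LIM and Vsx homeodomain factors (14.3% against 11.6%, adjusted exact p = 5.20e-05), and ATTGAT of Onecut factors (9.44% against 8.07%, adjusted exact p = 0.0174). They less often held the bHLH box CAGCTG (21.3% against 24.9%, adjusted exact p = 1.83e-05), the nuclear receptor half-site AGGTCA (19.5% against 23.0%, adjusted exact p = 1.83e-05) and the Sox motif ACAATG (16.6% against 20.6%, adjusted exact p = 3.60e-07). The half-site TGCTGA of Nrl, the rod-determining factor, was also less frequent (24.3% against 26.98%, adjusted exact p = 0.00216). CAGATG of Neurod1 was at 25.3% against 27.1% (adjusted exact p = 0.0493), a call lost under 9 of 11 planned settings and both added ones. No difference passed for TTGGCA of NFI factors (−0.80 points, interval −2.28 to 0.68), TGACTCA of AP-1 (−0.27, −1.14 to 0.58) or ATGCAAAT of POU factors (−0.51, −1.12 to 0.07). These tests are Fisher's exact tests adjusted over 22 comparisons. With only 50 bp on each side of the summit the calls for the LIM and Vsx, other bHLH, Onecut, Sox and Nrl motifs were lost, and those for the other bHLH motif (−2.04 points, adjusted exact p = 0.0814) and the Nrl motif (−1.75 points, adjusted exact p = 0.157) were also lost with −log10 q of at least 5.

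All 11 motifs were more frequent at members than at Otx2-bound H3K4me3 peaks, with differences of 1.02 points for ATGCAAAT to 20.97 for TAATCC and all adjusted exact p below the threshold of 0.05. The call for ATGCAAAT was lost in windows with under 15 CpG (0.27 points) and in summits over 1000 bp from a TSS (0.37 points). The median G and C content of the summit windows was 49.2% at members and at active enhancers and 62.1% at H3K4me3 peaks, and its part in these differences was not tested. In windows 1000 bp from the members' own summits, TAATTA was at 9.21%, CAGATG at 23.2%, CAGCTG at 14.0%, ACAATG at 15.8% and ATTGAT at 10.9%. Besides TAATCC, the motifs TAATTA and CAGCTG therefore stood furthest above the members' own flanks, and ATTGAT stood at 9.44%, below them.

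**Figure D4:**
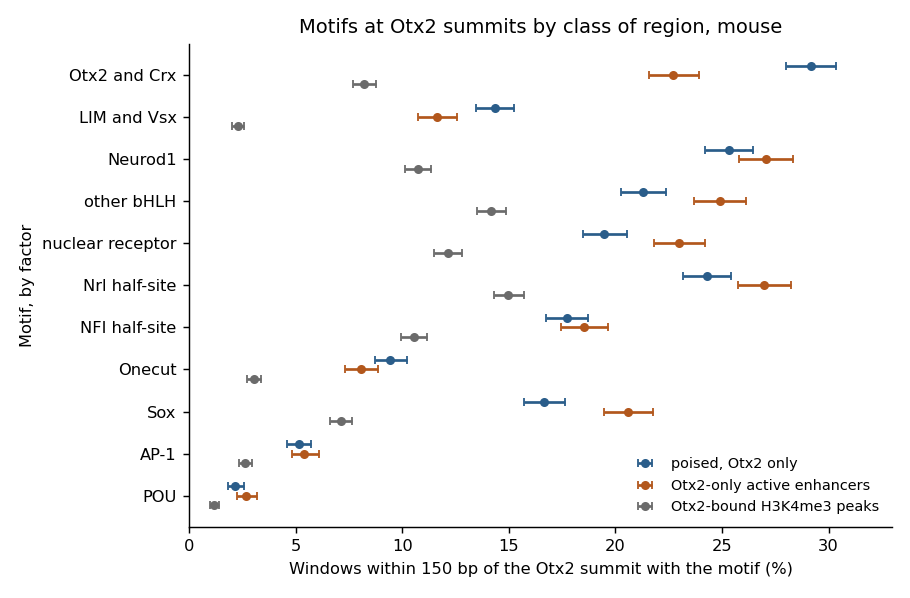
Percent of windows within 150 bp of Otx2 summits that hold each of 11 motifs (horizontal axis), by class of mouse region, with 95% Wilson intervals that cover counting error only. Members exceed active enhancers for the Otx2 and Crx motif (29.2% against 22.7%) and lie below them for the other bHLH, nuclear receptor, Nrl and Sox motifs.

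Members were more often outside genes than either comparison class. By the H3K4me1 summit, 2991 members (51.9%) lay outside protein-coding genes, 2054 (35.6%) in introns, 543 (9.42%) within 1000 bp of a TSS and 177 (3.07%) in exons. Active enhancers with Otx2 alone were placed by the H3K27ac summit, and 41.9% lay outside genes and 51.1% in introns. Members differed from them by 9.98 points (8.07 to 11.9, Fisher's exact test, adjusted exact p = 2.17e-24) and −15.4 points (−17.3 to −13.5, adjusted exact p = 8.19e-57). Of poised enhancers with neither factor, 43.3% lay outside genes and 49.6% in introns, with differences of 8.59 (adjusted exact p = 1.65e-36) and −14.0 points (adjusted exact p = 4.10e-94). Members also lay within 1000 bp of a TSS more often, 9.42% against 3.81% of active enhancers (adjusted exact p = 6.77e-31) and 4.28% of unbound poised enhancers (adjusted exact p = 2.62e-57). The exon shares of 3.23% and 2.84% did not differ from that of members beyond counting error (adjusted exact p = 0.654 and 0.351). The median distance to the nearest TSS was 32290 bp, and 75.0% of members lay within 100000 bp.

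The members near a TSS were CpG-rich in part. Of the 543, 216 (39.8%) had 15 or more CpG within 150 bp of the Otx2 summit, against 3.07% of the members in introns. Over all members 441 (7.65%) did, against 1.45% of active enhancers and 70.8% of H3K4me3 peaks. TAATCC was at 11.8% of these 441 (9.11 to 15.1) and at 30.6% of the other 5324 (29.4 to 31.9). Otx2 summits lay on repeat-masked bases at 9.47% of members and 9.85% of active enhancers, a difference of −0.38 points (−1.52 to 0.75, adjusted exact p = 0.529), and at 5.51% of H3K4me3 peaks (adjusted exact p = 5.71e-20). At 1000 bp from the members' summits 21.9% of bases were masked.

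By chromosome the share of poised enhancers that were members ran from 3.62% on mouse chromosome X (2.96 to 4.42) to 7.16% on chromosome 7 (6.46 to 7.93). In 13LGS it ran from 1.92% on chromosome Itri10 (1.44 to 2.56) to 4.93% on chromosome Itri16 (3.997 to 6.06). These are the ends of the range and were not tested.

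The nearest protein-coding TSS linked mouse members to 3670 of 21911 genes (16.7%). One member belonged to each of 2494 genes, and 100 genes had 5 or more. The most, 12, were nearest to *Reep3*, which shapes the endoplasmic reticulum, to *Cdh4*, the retinal cadherin, and to *Auts2*, a regulator of neuronal development. They made up 19.7% of the 61 poised enhancers of *Reep3*, 11.8% of 102 at *Cdh4* and 10.9% of 110 at *Auts2*, beside 6.13% over all poised enhancers. *Tle3*, a Groucho corepressor, and *Zfp608*, a zinc finger gene, had 11 each. *Slc4a3*, an anion exchanger, and *Med13l* of the Mediator complex had 10. *Epha4*, an ephrin receptor, the surface molecule gene *Cd83* and *Irx1*, an Iroquois homeobox gene, had 9. At *Irx1* the 9 were 30.0% of its 30 poised enhancers and lay 65474 to 500505 bp from its TSS, with Otx2 enrichments of 2.94 to 6.87. Genes with much intergenic space around them collect more peaks by this link, and the nearest gene need not be the one regulated.

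Transcription factor genes of photoreceptors had members at 13 of 20, 34 in all (9.02% of their 377 poised enhancers). Over all protein-coding genes 16.7% had a member, and over all poised enhancers 6.13% were members. *Otx2* had 3, with Otx2 enrichments of 2.46 to 3.87 and none with TAATCC at the summit. *Crx*, the photoreceptor homeobox gene, had 1 (2.87) and *Prdm1*, which holds back the bipolar fate, had 1 (4.33), and *Neurod1* had 1 with an enrichment of 2.43. *Mef2c*, a MADS-box factor, had 5, with enrichments of 2.10 to 5.53, of which 3 held TAATCC. *Thrb* had 3, at chr14:17431449-17433193, chr14:17605427-17606845 and chr14:17970560-17973387, with H3K4me1 enrichments of 7.02, 7.02 and 8.67. The first pair lay upstream, 228581 and 53762 bp from the TSS, and held TAATCC, and the last lay in an intron. *Sall3*, a zinc finger gene of cones, had 5 (2.72 to 6.43), and the highest enrichment of the list was 11.6 at *Rorb*, a nuclear receptor gene of photoreceptor development, without TAATCC in its window. No member was nearest to *Nrl* or *Nr2e3*, the rod-determining genes, or to *Rxrg*.

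Phototransduction genes had few members each. Over all protein-coding genes 16.7% had a member, and over all poised enhancers 6.13% were members. Rod genes had a member at 6 of 18, 7 members in all (13.5% of 52 poised enhancers), and cone genes at 6 of 11, 6 members (10.0% of 60). The single poised enhancer of *Sag*, the rod arrestin, had its H3K4me1 summit 516 bp from the TSS. Its enrichments were 12.1 for Otx2 and 2.57 for H3K4me1. *Gnat2*, the cone transducin subunit, had 1 with its H3K4me1 summit at 623 bp and enrichments of 9.74 and 8.01. The Otx2 summits lay nearer, at chr1:87803679 for a *Sag* gene start of 87803680, and at chr3:108092936 for a *Gnat2* gene start of 108092789. The windows of both held TAATCC, and at *Sag* the Otx2 summit lay outside the H3K4me1 peak. *Grk1*, a kinase gene of the rod list, had 2 (2.91 and 4.80) and *Gnat1*, the rod transducin subunit, 1 (3.20). The cone channel genes *Cnga3* and *Cngb3* had 1 each, with Otx2 enrichments of 2.85 and 2.32, and both windows held TAATCC. The cone opsin genes *Opn1sw* and *Opn1mw* had none. Ribbon synapse genes had a member at 2 of 9, *Bsn* and *Rims2* (3.49% of 86).

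Genes of other retinal cell types had members too. Bipolar genes had them at 8 of 18 (13 members, 6.13% of 212 poised enhancers), among them *Vsx1*, a bipolar homeobox gene, with 2 and *Lhx4* with 1 at 232 bp from its TSS. Progenitor and Müller glia genes had them at 14 of 22 (38 members, 7.18% of 529). *Sox2*, a progenitor factor, had 6 with Otx2 enrichments of 3.46 to 9.20, none with TAATCC, and *Six3* and *Sox9* had 6 each, *Hes1* 5 and *Pax6* 4. Ganglion, amacrine and horizontal cell genes had them at 13 of 18 (31 members, 9.23% of 336), with 5 each at *Pou4f1*, a ganglion cell factor, and *Ebf1*. Pigment epithelium genes had them at 5 of 10 (12 members, 13.8% of 87). At *Dct*, which encodes a melanin enzyme, a member with its H3K4me1 summit 713 bp from the TSS had an Otx2 enrichment of 11.6. *Otx1*, the paralogue of *Otx2*, had 5 of its 11 poised enhancers as members. Liver and muscle genes, which retina should not use, had a member at 2 of 16, *Apob* with 3 and *Ckm* with 1 (7.14% of 56). By genes, every list but that of liver and muscle stood above the 16.7% of all genes, and by poised enhancers the shares ran from 3.49% to 13.8% around 6.13%, so the lists stood closer to the background by the second measure. The lists are short and were not tested. With −log10 q of at least 5, cone genes had a member at 3 of 11, and with members within 50000 bp of the gene body, ribbon synapse genes had one at 5 of 9 and liver and muscle genes at 5 of 16.

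**Figure D5:**
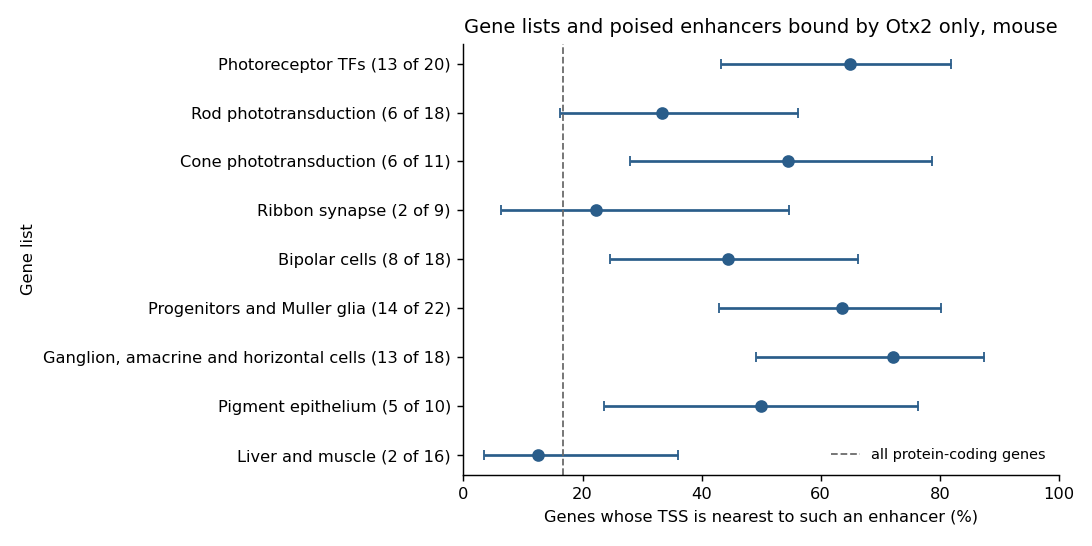
Percent of the genes of each list whose TSS is the nearest to at least 1 mouse poised enhancer bound by Otx2 only (horizontal axis), with 95% Wilson intervals that cover counting error only. The dashed line marks all protein-coding genes at 16.7%, and the lists run from 12.5% for liver and muscle to 72.2% for ganglion, amacrine and horizontal cells.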

How the data were processed

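CUT&RUN was performed by the authors on nuclei of P5 13LGS and P2 mouse retina, and the peak lists used here cover 5 targets called against IgG. Per the labels and the study's methods, reads were trimmed with cutadapt 3.5 and Trim Galore 0.6.4, aligned with Bowtie2 to HiC_Itri_2 (13LGS) or GRCm38 (mouse), filtered with SAMtools 1.12 and deduplicated with UMI-tools, and peaks were called with MACS2 against IgG at q 0.05, pooling the libraries of a target. The deposited lists give each peak's position, its summit, its fold enrichment over IgG (a ratio) and its −log10 q, and no read counts. Pooling means that a peak can rest on 1 library.

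Members and gene lists were chosen with earlier results of these data known. Overlaps were computed with numpy 2.4.6 and pandas 2.3.3 and tested against bedtools on simulated intervals. Where a region held several Otx2 peaks, that of highest fold enrichment was used. Motifs were counted on both strands of the GRCm38.p6 reference within 150 bp of the Otx2 summit, with pysam 0.24.0. Chromosome lengths of the reference held every mouse peak. Genes were the protein-coding genes of GENCODE M21. They were linked by the TSS nearest to the H3K4me1 summit of a member, from which the TSS distances of members were measured. No 13LGS genome or annotation was used here. Shares carry 95% Wilson intervals. Differences were tested with two-sided Fisher's exact tests (scipy 1.17.1), with Newcombe intervals and Benjamini-Hochberg adjustment over 22 motif, 8 place and 2 repeat comparisons. Intervals cover counting error only. Counts, widths and enrichments that follow from the rule were not tested. Regions were named as the 10 members of highest Otx2 enrichment per species, and genes as the 10 with the most members and the listed genes with one. Listed genes without a member, the ends of the chromosome range and the 7 printed sequences were named after their values were seen.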

Additional observations from a re-analysis of the deposited data

How the results depend on the processing

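No paired analysis was possible because each list pools the libraries of its target and carries no replicate number, and no replicate could be left out. TAATCC stayed more frequent at members than at active enhancers under 11 planned settings and 2 added later, by 0.94 to 8.54 points (largest adjusted exact p = 0.0149, with 50 bp on each side), and than at H3K4me3 peaks by 2.65 to 29.5 points. Members in 13LGS numbered 2009 with −log10 q of at least 5 and 1751 with 250 bp of overlap with Otx2. The share of poised enhancers that were members, in 13LGS and mouse, was 3.08% and 5.96% at −log10 q of 5, 3.63% and 5.85% at a fold enrichment of 2.5, 3.48% and 5.57% with the Otx2 summit inside the H3K4me1 peak, and 2.15% and 4.42% with 250 bp of overlap. It was 4.40% and 7.23% with H3K4me1 peaks within 500 bp merged, 4.59% and 5.86% with equal numbers of peaks, 3.99% in 13LGS with no other mark within 1000 bp, and 5.89% in mouse with Otx2 peaks free of other marks. Mouse thus stayed above 13LGS in each setting run in both species. The share of genes with a member was 12.5%, 15.3%, 15.4%, 12.9%, 15.4%, 16.04%, 15.98% and 16.2% under the 8 peak settings in the order −log10 q, fold, summit, overlap, other marks, clean Otx2 peaks, merging and equal numbers, 29.5% with members within 50000 bp of the gene body and 14.7% with the nearest TSS within 100000 bp. The exon share against unbound poised enhancers, not past the threshold, turned to −0.067 points at a fold of 2.5 (adjusted exact p = 0.827). Against active enhancers, ATGCAAAT turned to 0.44 points at −log10 q of 5, and CAGCTG to 0.48 and TGACTCA to 0.053 points with 50 bp on each side. Of 286 motif values under other settings, 263 kept direction and side of the threshold. The other place differences kept both in all settings run on them. Beyond what each setting removes or merges, the cause of these shifts was not tested. Depth is unknown, so a poised enhancer without an Otx2, H3K27ac or Neurod1 peak may hold one below the calling limit.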

Other observations

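Poised enhancers with both Otx2 and Neurod1, 275 in 13LGS and 803 in mouse, were compared with members after the data were seen. In mouse 50.1% of them held the Neurod1 E-box CAGATG at the Otx2 summit, against 25.3% of members, a difference of −24.8 points (95% Newcombe interval −28.4 to −21.1, two-sided Fisher's exact test, p = 3.58e-43 adjusted over 11 motifs). CAGCTG was at 39.5% against 21.3% (adjusted exact p = 1.64e-26). TAATCC was at 25.5% against 29.2%, a difference of 3.65 points that did not pass the adjustment (0.31 to 6.78, adjusted exact p = 0.107). The other 8 motifs did not pass either. The rule itself parted these regions from members by their Neurod1 peaks. The differences in the bHLH boxes CAGATG and CAGCTG are therefore not independent of the rule.

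Of the 16 words of TAAT and another pair of bases, that of Otx2 (TAATCC) was the most concentrated around the Otx2 summits of mouse members. It occurred 2690 times between 50 and 200 bp and 743 times between 400 and 550 bp, a ratio of 3.62. TAATCT followed at 2.27, TAATTA at 1.90, TAATTG at 1.81 and TAATCG at 1.69. The lowest ratios were 0.75 for TAATTT and 0.67 for TAATAT. These counts were made after the data were seen and carry no test. The stretch from 50 to 200 bp is where the excess of TAATCC itself lay, so the ranking is not independent of that word.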
